A study of Homo sapiens with 6 samples.

Results

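The enzymes that turn precursor proteins into mature peptide hormones and growth factors were examined gene by gene in SW480 cells that expressed either GFP or POU5F1B. The set held 9 genes of the 63677 identifiers in each count table: PAM, the proprotein convertases PCSK1, PCSK2, PCSK5, PCSK6, PCSK7 and FURIN, and the carboxypeptidases CPE and CPD. PAM was chosen by its levels in these same libraries, which had been seen to differ between the groups, and the other members were added as its enzyme family. The values of the members are therefore given as a description, and where calls are counted nothing is read from them. All 9 symbols were found, and 6 of the members (PAM, PCSK5, PCSK6, PCSK7, FURIN and CPD) had enough reads to enter the fit across 14286 genes.

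SW480 is an established cell line from a human colorectal adenocarcinoma. The cells had been transduced with a lentiviral vector, selected in puromycin, in which doxycycline switches on either GFP, the control, or an HA-tagged POU5F1B, a retrogene copy of the pluripotency factor gene POU5F1. All cells of both groups were kept in L-15 medium with fetal calf serum and received 1 ug/mL doxycycline for 72 h, so that no library comes from uninduced or untransduced cells. Polyadenylated RNA was sequenced from 3 GFP and 3 POU5F1B libraries, and nothing in the labels says that the replicates came from separate cultures, so that p-values measure only the spread between these libraries.

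Many peptide hormones and growth factors are made as long, inactive precursors in the secretory pathway. Convertases of the PCSK family cut the precursor after basic residues: PCSK1 and PCSK2 do so in the secretory granules of endocrine and neural cells, while FURIN, PCSK5, PCSK6 and PCSK7 act in most tissues in the trans-Golgi network, at the cell surface or outside the cell. The carboxypeptidases CPE, in granules, and CPD, in the trans-Golgi network, then remove the basic residues left at the new end. Where that end is a glycine, PAM, the only enzyme known to amidate peptides, converts it to the carboxy-terminal amide that hormones such as adrenomedullin and galanin carry, a reaction that needs copper and ascorbate.

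The libraries held 10767947 to 12787637 counts each. POU5F1B, read first as a check of the labels, was at 0.506, 0.381 and 0.0870 CPM (reads scaled to a common library size by TMM) in GFP replicates 1, 2 and 3 and at 1182, 1056 and 121 CPM in POU5F1B replicates 1, 2 and 3. Transgene transcript was therefore lowest, among the POU5F1B libraries, in replicate 3. GFP replicate 3 stood apart from its group: the standard deviation of the log2 CPM difference over genes was 0.330 between GFP replicates 1 and 2, but 0.986 and 0.921 between replicate 3 and each of them. The corresponding values were 0.343 for POU5F1B replicates 1 and 2, and 0.576 and 0.617 for POU5F1B replicate 3. Of all libraries, the nearest to GFP replicate 3 was POU5F1B replicate 3 (0.799), and what these libraries share was not tested. Of 8 colon epithelium markers, KRT8 (2995 to 4251 CPM) and KRT18 (2917 to 3967 CPM) were abundant in every library, whereas KRT20 stayed at or under 1.45 CPM. CDH17 had 0, 0 and 77 reads with GFP and 0, 1 and 24 with POU5F1B, in the order of the replicates. EPCAM (86.8, 89.4 and 519 CPM with GFP but 320, 331 and 252 CPM with POU5F1B) and VIL1 (23.1, 14.02 and 211 CPM with GFP but 42.7, 37.6 and 111 CPM with POU5F1B) overlapped between the groups. With replicates 1 and 2 only, EPCAM (1.87) and VIL1 (1.16 on the log2 scale) passed the threshold as higher, beside 3.21% of tested genes. That direction was opposite to PAM. In that fit KRT18 was at 0.24, KRT8 at 0.17, KRT20 at -0.46 and CDX2 at -0.58, none past the threshold. The part of these markers in the results was not tested. The 4 leukocyte markers summed to at most 1.60 CPM in any library. With voom of limma, 0 of the 14286 tested genes (0%) passed the threshold, a more than 2-fold difference at an adjusted p-value below 0.05, although 1698 had an unadjusted p-value under 0.05. Under the same limits, edgeR's quasi-likelihood test gave 0 genes and DESeq2 gave 232.

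PAM (ENSG00000145730, chr5:102089685-102365434 on GRCh37, plus strand) has 26 exons in its canonical transcript. GFP replicates 1, 2 and 3 held 10971, 10115 and 9878 PAM reads, and POU5F1B replicates 1, 2 and 3 held 2081, 1868 and 4635. On the CPM scale these were 924, 771 and 859.5 in GFP cells and 164, 173 and 386 in POU5F1B cells. Every POU5F1B library was below every GFP library. POU5F1B replicate 3 had the most PAM and the least POU5F1B transcript of its group. This is a single library, and a link between those levels was not tested. The mean level of GFP cells was 852 ± 77.1 CPM and that of POU5F1B cells 241 ± 126 CPM (SD, n = 3 each), 3.54-fold lower. On the CPM scale the gap between the groups was larger than the spread within either. On the log2 scale the gap was smaller than the spread of the POU5F1B libraries. The fitted log2 fold change was -1.93 ± 0.31 (SE), with a 95% interval of -2.67 to -1.20. Taken by replicate number, the log2 difference was -2.50, -2.15 and -1.16 for replicates 1, 2 and 3. In bulk RNA, fewer cells that express PAM and less PAM RNA in each cell cannot be told apart.

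The size of the PAM difference was the same with and without GFP replicate 3, but the call was not. Without that library the log2 fold change was -1.94 and PAM passed the threshold, as did 2.78% of all tested genes in the lower and 1.39% in the higher direction. Without POU5F1B replicate 3 it was -2.33, again past the threshold, beside 0.0210% of tested genes lower and 0.0140% higher. With replicates 1 and 2 only it was -2.34 and past the threshold, where 5.15% of tested genes were lower and 3.21% higher. PAM was the member past the threshold in each of these fits. It had been picked for this contrast, so nothing is read from the calls.

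Among tested genes, 133 had a log2 fold change at or below that of PAM, PAM included. Of the fibroblast markers, 1 of 5 was tested: COL1A1 was at 142, 118 and 16.9 CPM in GFP replicates 1, 2 and 3 and at 6.76, 5.56 and 9.49 CPM in POU5F1B replicates 1, 2 and 3. The list summed to 143, 119.8 and 20.2 CPM in GFP replicates 1, 2 and 3 and to 6.76, 5.75 and 10.1 CPM in the other group, with COL3A1 at 0 in all 6. Both the list sum, which was mostly COL1A1, and PAM were lower in every POU5F1B library. GFP replicate 3 had little COL1A1 and as much PAM as the other GFP libraries. COL1A2 had 19, 19 and 1 reads in GFP replicates 1, 2 and 3 and 0, 2 and 1 with POU5F1B. LUM had 0, 0 and 34 reads with GFP and 0, 0 and 5 with POU5F1B, and DCN 0, 0 and 3 against 0, 0 and 1. The part of the list in the PAM result was not tested.

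**Figure D1:**
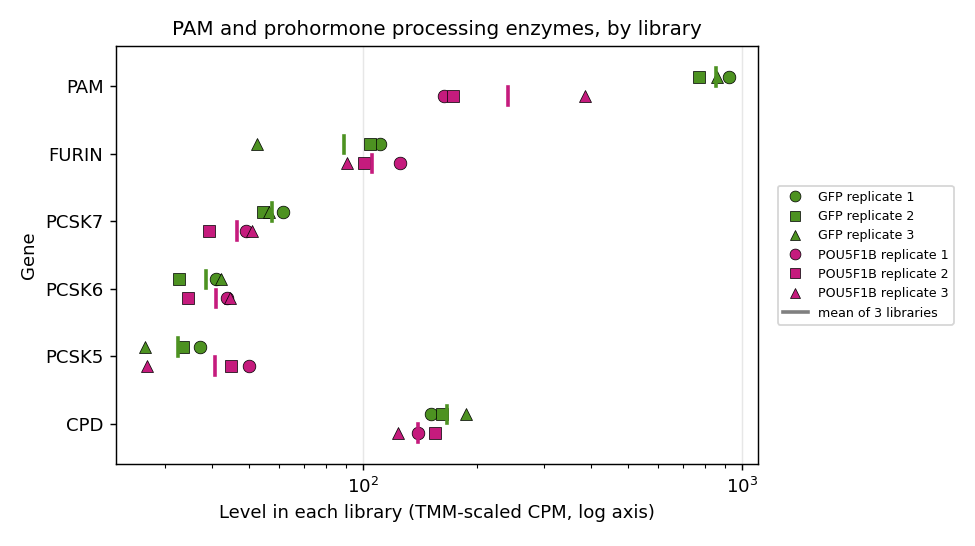
Level of each tested member in each library (TMM-scaled CPM, log axis), with GFP libraries in green and POU5F1B libraries in magenta. Symbols mark the replicate number and vertical bars the mean of 3 libraries. The 3 POU5F1B libraries sit between 164 and 386 CPM for PAM, left of the 3 GFP libraries at 771 to 924 CPM, while the groups lie close together or mix for the other 5 genes.

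The sequence in front of the members is shown for PAM, the gene whose level differed most, and for the PCSK1 window that holds a cAMP response element. The RefSeq table (GRCh38.p14, a different build from the gene positions above) gave 17 windows for the 9 members, each from 250 bases before to 50 bases after an annotated start, and 35116 windows in all. Capitals mark matches, on either strand, to the GC box GGGCGG, the cAMP response element TGACGTCA, the octamer ATGCAAAT that POU domain factors can bind, or the TATA box TATAAA. Each sequence is written 5′ to 3′ on the strand of its gene.
PAM window 1, chr5:102754533-102754832, plus strand: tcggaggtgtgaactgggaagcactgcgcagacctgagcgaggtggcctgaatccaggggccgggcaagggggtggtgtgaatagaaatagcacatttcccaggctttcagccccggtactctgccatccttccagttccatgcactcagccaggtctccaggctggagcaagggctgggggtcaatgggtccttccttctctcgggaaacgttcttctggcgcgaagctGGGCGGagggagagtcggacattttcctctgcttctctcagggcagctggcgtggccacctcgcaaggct
PAM window 2, chr5:102755055-102755354, plus strand: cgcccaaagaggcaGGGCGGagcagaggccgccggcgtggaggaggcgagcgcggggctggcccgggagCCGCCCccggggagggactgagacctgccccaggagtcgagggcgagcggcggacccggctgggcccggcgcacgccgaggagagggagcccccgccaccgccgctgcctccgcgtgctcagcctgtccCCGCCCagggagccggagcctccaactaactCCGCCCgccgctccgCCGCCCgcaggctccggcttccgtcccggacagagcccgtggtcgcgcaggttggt
PAM window 3, chr5:102865573-102865872, plus strand: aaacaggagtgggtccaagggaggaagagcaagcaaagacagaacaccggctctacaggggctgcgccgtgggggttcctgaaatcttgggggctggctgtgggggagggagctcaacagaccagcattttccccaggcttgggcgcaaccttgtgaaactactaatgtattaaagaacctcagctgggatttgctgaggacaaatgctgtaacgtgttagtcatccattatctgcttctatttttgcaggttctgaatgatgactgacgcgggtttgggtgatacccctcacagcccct
PCSK1 window 2, chr5:96433199-96433498, minus strand: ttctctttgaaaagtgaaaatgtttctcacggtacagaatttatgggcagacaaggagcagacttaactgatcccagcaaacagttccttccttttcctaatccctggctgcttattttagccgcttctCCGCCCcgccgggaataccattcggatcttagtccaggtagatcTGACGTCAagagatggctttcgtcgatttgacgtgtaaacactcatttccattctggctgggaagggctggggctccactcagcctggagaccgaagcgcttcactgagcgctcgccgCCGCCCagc
Matches of different motifs did not overlap in these windows. The starts of PAM differ in composition: window 2 was 78.3% G and C with 5 GC boxes, window 1 was 60.7% with 1, and window 3 was 52.3% with none, against a median of 58.7% over all windows. The octamer was in 0 of the 17 member windows and in 1.77% of all windows. The cAMP response element was in 1 member window, that of PCSK1, and in 1.85% of all windows. The GC box was in 12 member windows and in 45% of all windows, and the TATA box in 2 member windows (PCSK1 window 1 and FURIN window 1) and in 11.5% of all windows. These matches describe letters only and were not tested for binding.

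The convertases of the constitutive pathway were all expressed. FURIN (ENSG00000140564, chr15:91411818-91426794, plus strand), the best known of them, was at 111, 104 and 52.6 CPM in GFP replicates 1, 2 and 3 and at 125, 101 and 90.7 CPM in POU5F1B replicates 1, 2 and 3. The groups overlapped, with GFP replicate 3 the lowest library of all. The log2 fold change of FURIN was 0.30 ± 0.30 (95% interval -0.41 to 1.01). It was -0.05 without GFP replicate 3 and 0.05 with replicates 1 and 2 only, so the sign was not settled.

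PCSK5 (ENSG00000099139, chr9:78505560-78977891, plus strand), which processes growth factors and other secreted precursors, was at 37.2, 33.5 and 26.6 CPM in the GFP libraries and at 50.1, 45.0 and 26.9 CPM in the POU5F1B libraries. Both replicate 3 libraries were at the bottom of their groups and the groups overlapped. The log2 fold change was 0.29 ± 0.27 (95% interval -0.36 to 0.93), and the differences by replicate number were 0.43, 0.42 and 0.01.

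PCSK6 (ENSG00000140479, chr15:101829989-102065405, minus strand), known for processing TGF-beta family members outside the cell, was the steadiest member. It was at 41.0, 32.6 and 42.1 CPM in GFP cells and at 43.8, 34.6 and 44.6 CPM in POU5F1B cells, overlapping throughout, with replicate 2 the lowest of both groups. The log2 fold change was 0.10 ± 0.17 (95% interval -0.31 to 0.51), and without GFP replicate 2 it was -0.0075. PCSK6 shares 1897 exonic bases with the opposite-strand gene SNRPA1-DT, which had at most 16 reads in any library, and 24 exonic bases with SNRPA1 on its own strand, which had 864 to 1362 reads. The part of either in the PCSK6 counts was not tested.

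PCSK7 (ENSG00000160613, chr11:117075053-117103241, minus strand), a membrane-bound convertase, was at 61.4, 54.5 and 56.6 CPM in GFP cells and at 49.2, 39.3 and 50.95 CPM in POU5F1B cells. All 3 POU5F1B libraries were below all 3 GFP libraries, by a small margin. The log2 fold change was -0.31 ± 0.14 (95% interval -0.65 to 0.04). PCSK7 shares 2233 exonic bases with TAGLN on the opposite strand, and TAGLN had 570, 660 and 520 reads with GFP but 368, 297 and 282 with POU5F1B. The strand setting of the counting was not stated, and the part of TAGLN in the PCSK7 counts was not tested.

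Of the carboxypeptidases, CPD (ENSG00000108582, chr17:28705945-28797007, plus strand) was the one expressed. It was at 151, 162 and 187 CPM in GFP cells and at 139.7, 154.5 and 124 CPM in POU5F1B cells. The groups overlapped, with GFP replicate 3 the highest and POU5F1B replicate 3 the lowest library. The log2 fold change was -0.26 ± 0.14 (95% interval -0.58 to 0.06), and by replicate number the differences were -0.11, -0.07 and -0.59.

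The granule enzymes were close to absent. PCSK1 (ENSG00000175426, chr5:95726037-95769847, minus strand) had 5, 7 and 11 reads with GFP but 0, 0 and 22 with POU5F1B. CPE (ENSG00000109472, chr4:166282346-166419699, plus strand) had 14, 3 and 5 reads in GFP cells and 1, 5 and 6 in POU5F1B cells. PCSK2 (ENSG00000125851, chr20:17206752-17465223, plus strand) had 1 read in GFP replicate 1 and 0 in the other 5 libraries, where a count of 0 allows up to 3 counts, or 0.229 to 0.278 CPM depending on the library. None of these 3 genes was tested, and no difference between the groups was detectable at this depth. In each group, replicate 3 was the library with the most PCSK1 reads.

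Among the 6 tested members, 0 passed the threshold with voom (0% of all tested genes did), edgeR called 0 and DESeq2 called PAM. With voom, 1 member (PAM) had an unadjusted p-value under 0.05, as did 1698 of all 14286 tested genes. These counts use the contrast that PAM was chosen by and are no evidence for it. Both PAM and PCSK7 were lower in every POU5F1B library, against 9.24% of all tested genes, and no member was higher in every POU5F1B library, against 10.2%. The median log2 fold change over the 6 was -0.08, and over all tested genes -0.02. For FURIN, PCSK5, PCSK6, PCSK7 and CPD the 95% intervals did not reach a 2-fold lower level, and that of FURIN just reached a 2-fold higher one.

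Levels of different genes were compared per kilobase of the canonical transcript. In GFP cells PAM led with 193 to 232 CPM per kilobase, followed by FURIN (12.4 to 26.1), CPD (16.1 to 19.95), PCSK7 (12.98 to 14.6), PCSK6 (7.64 to 9.86) and PCSK5 (2.60 to 3.64). FURIN and CPD overlapped in this order, whereas the other neighbours among these 6 genes were separate over the 3 libraries. CPE, PCSK1 and PCSK2 were at most 0.457, 0.186 and 0.0180 CPM per kilobase. In POU5F1B cells PAM still led, at 41.0, 43.4 and 96.7 CPM per kilobase, above FURIN at 21.4 to 29.5, and PCSK7 and PCSK6 overlapped at 9.36 to 12.1 and 8.10 to 10.45. The order depended on the length used. Per kilobase of all annotated exons, PAM in POU5F1B cells (21.8 to 51.3) overlapped FURIN (18.3 to 25.2), and PCSK7 and PCSK5 lay side by side in GFP cells (2.45 to 2.77 and 1.996 to 2.79).

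Helpers of the convertases and partners of PAM were read next. Of the 2 helpers, PCSK1N, which encodes an inhibitor of PCSK1, was at 6.32, 5.41 and 2.35 CPM in GFP cells and at 2.83, 1.11 and 3.50 CPM in POU5F1B cells, overlapping because GFP replicate 3 was low (-0.93 ± 0.55, voom adjusted p = 0.550). It passed the threshold, at -1.66, with replicates 1 and 2 only, beside 5.15% of tested genes in that direction. SCG5, the chaperone of PCSK2, had too few reads to test. PAM itself is bound or phosphorylated on its cytoplasmic tail by the products of UHMK1, KALRN and TRIO, and 0 of these 3 passed the threshold or an unadjusted p-value of 0.05 with voom. Their log2 fold changes were 0.04 ± 0.12 (UHMK1), -0.11 ± 0.28 (KALRN) and 0.20 ± 0.13 (TRIO). The fourth gene of that list, RASSF9, was not tested.

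The genes that supply copper and ascorbate differed in both directions or little. Of the 9 genes, 8 were tested, 0 passed the threshold with voom, and the median log2 fold change was 0.08. With voom, 2 had an unadjusted p-value under 0.05, as did 1698 of all 14286 tested genes. ATP7A, which pumps copper into the secretory pathway, was at 5.81, 7.24 and 13.7 CPM in GFP cells and at 1.73, 3.62 and 5.33 CPM in POU5F1B cells. Every POU5F1B library was below every GFP library, although within each group the replicates ranged widely (log2 fold change -1.36 ± 0.50, voom adjusted p = 0.356). ATP7A was the gene of this list past the threshold with replicates 1 and 2 only, at -1.41, beside 5.15% of tested genes lower. SLC31A1, the copper importer of the cell surface, was higher in every POU5F1B library, at 80.3, 81.3 and 85.7 CPM against 64.6, 67.4 and 63.9 CPM (0.33 ± 0.10, voom adjusted p = 0.314). The remaining 6, among them the copper chaperone ATOX1 (0.06 ± 0.18), the copper pump ATP7B (0.11 ± 0.19), the ascorbate transporter SLC23A2 (0.24 ± 0.26) and the ascorbate-regenerating cytochrome CYB561 (0.03 ± 0.12), overlapped between the groups. CYB561A3 and CYB561D2, relatives of CYB561, were at 0.14 ± 0.23 and 0.02 ± 0.26 on the log2 scale.

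**Figure D2:**
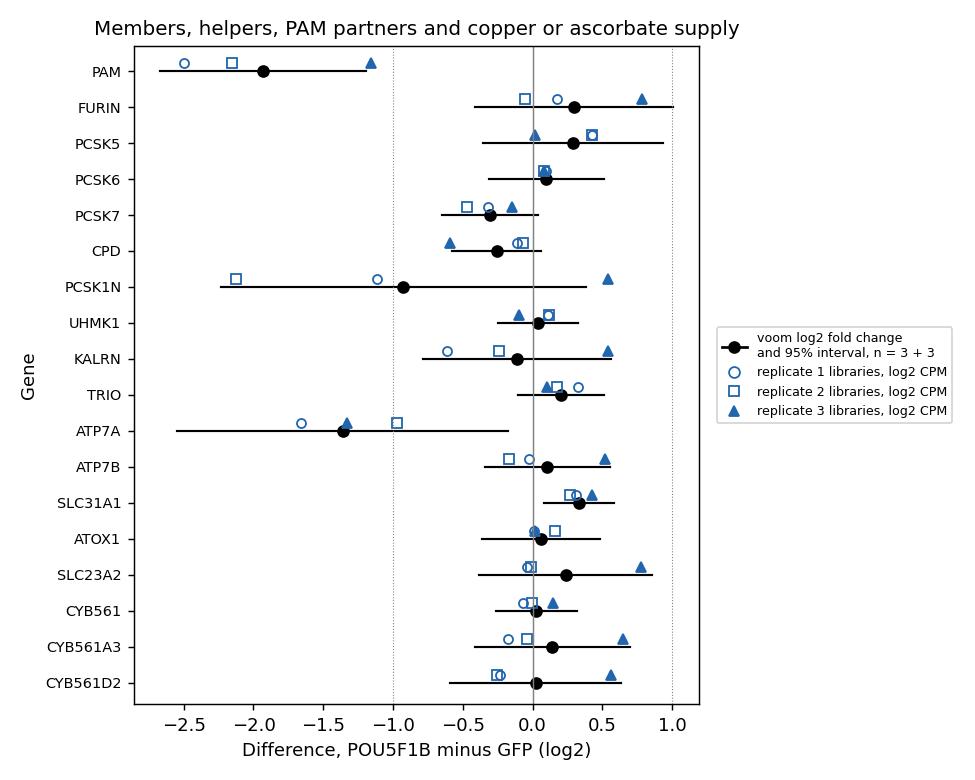
Log2 difference, POU5F1B minus GFP, for the 6 tested members, PCSK1N, the PAM partners and the copper and ascorbate genes. Black points and lines give the voom log2 fold change with its 95% interval (3 libraries a group), and blue symbols give the log2 CPM difference between libraries of the same replicate number. Dotted lines mark a 2-fold difference. PAM lies at -1.93 with all 3 blue symbols left of -1, ATP7A at -1.36, and most other genes near 0.

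Other enzymes of the same classes overlapped between the groups. Of the other convertases, MBTPS1, which cleaves membrane-bound transcription factors, was at -0.02 ± 0.21 on the log2 scale and the low PCSK4 at 0.05 ± 0.50. CPXM1, which encodes a carboxypeptidase-like protein, was at 40.8, 34.0 and 11.8 CPM in GFP cells and at 15.7, 11.2 and 32.4 CPM in POU5F1B cells. Its replicate 3 libraries ran opposite to the others, with log2 differences of -1.37, -1.59 and 1.44 for replicates 1, 2 and 3. Carboxypeptidase M, the other tested gene of its list of 6, was at most 1.30 CPM in any library. With voom, 0 of the 2 tested carboxypeptidases had an unadjusted p-value under 0.05. In the fit of replicates 1 and 2 only, CPXM1 was past the threshold as lower (-1.48), beside 5.15% of tested genes.

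Enzymes that finish peptides in other ways included a few with higher values in POU5F1B cells. QPCT, which forms the amino-terminal pyroglutamate of several hormones, was at 100.1, 101 and 104 CPM in GFP cells and at 190.0, 219 and 144 CPM in POU5F1B cells. No POU5F1B library reached down to a GFP library, with POU5F1B replicate 3 the nearest to the GFP libraries (0.83 ± 0.17, voom adjusted p = 0.207). ECE1, the endothelin-converting enzyme, and NRDC, an endopeptidase that cuts at basic residues, were at 0.23 ± 0.19 and -0.05 ± 0.12. Of 8 tested genes in this list of 10, 0 passed the threshold with voom. An unadjusted p-value under 0.05 was found for 2, as for 1698 of all 14286 tested genes. Higher in every POU5F1B library were 3 (QPCT, ECE2 and ACE, the last 2 named after their values were seen), against 10.2% of all tested genes. ACE was at 3.20, 3.20 and 3.22 CPM in GFP cells and at 7.71, 7.42 and 6.24 CPM in POU5F1B cells, a log2 fold change of 1.14 ± 0.21 (voom adjusted p = 0.195). Both QPCT (1.00) and ACE (1.22) passed the threshold with replicates 1 and 2 only, beside 3.21% of tested genes in that direction.

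Most genes for proteins of the dense-core granule, the compartment where PAM works in endocrine cells, were lower in POU5F1B replicates 1 and 2 than in the GFP libraries, with mixed levels in POU5F1B replicate 3. CHGA, chromogranin A, was at 16.3, 16.4 and 30.2 CPM in GFP cells and at 1.34, 1.85 and 25.2 CPM in POU5F1B cells. POU5F1B replicate 3 lay between the GFP libraries and the groups overlapped (-2.30 ± 0.93, voom adjusted p = 0.402). VGF, a granule peptide precursor, was at 64.8, 75.0 and 91.1 CPM in GFP cells and at 20.8, 13.9 and 56.9 CPM in POU5F1B cells, with no overlap (-1.57 ± 0.44, voom adjusted p = 0.285). PTPRN2, a granule membrane protein, was lower in every POU5F1B library by a narrower margin, at 69.9, 64.3 and 84.3 CPM against 89.2, 87.1 and 99.8 CPM (-0.34 ± 0.14, voom adjusted p = 0.409).

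Of the 11 granule genes, 8 were tested and 0 passed the threshold with voom. An unadjusted p-value under 0.05 was found for 4, as for 1698 of all 14286 tested genes. The median log2 fold change of the 8 was -1.60, against -0.02 over all tested genes. Lower in every POU5F1B library were 2 (VGF and PTPRN2), against 9.24% of all tested genes. With replicates 1 and 2 only, 6 of the 8 passed the threshold, all lower, against 5.15% of tested genes in that direction. These were CHGA, VGF and, named after their values were seen, CHGB, SCG3, SYP and CADPS. SYT7, also named after its values were seen, had a positive log2 fold change with all libraries (0.29 ± 0.52). It was at 8.68, 7.62 and 25.8 CPM in GFP cells and at 12.3, 10.5 and 23.3 CPM in POU5F1B cells. SCG3, a granule-sorting protein, was at 3.96, 5.87 and 15.2 CPM in GFP cells and at 0.315, 0.556 and 6.66 CPM in POU5F1B cells. CADPS, a vesicle priming factor, was at 7.58, 4.88 and 3.57 CPM in GFP cells but at 0.315, 1.11 and 9.82 CPM in POU5F1B cells, where replicate 3 was the highest library of all. CADPS2, its relative, was not tested and had 5, 2 and 317 reads in GFP cells and 5, 6 and 80 in POU5F1B cells, nearly all in the replicate 3 libraries.

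Enteroendocrine markers overlap the granule genes, since CHGA, CHGB and SYP are on both lists and gave nearly all marker reads. The 12 markers summed to 42.8, 40.8 and 71.5 CPM with GFP and to 6.999, 9.27 and 63.7 CPM with POU5F1B. These sums therefore repeat the granule values. No other marker had enough reads to test, and the lineage factors NEUROG3 and RFX6, with SCGN, were at 0 in every library. The part of such cells in the granule genes was not tested.

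**Figure D3:**
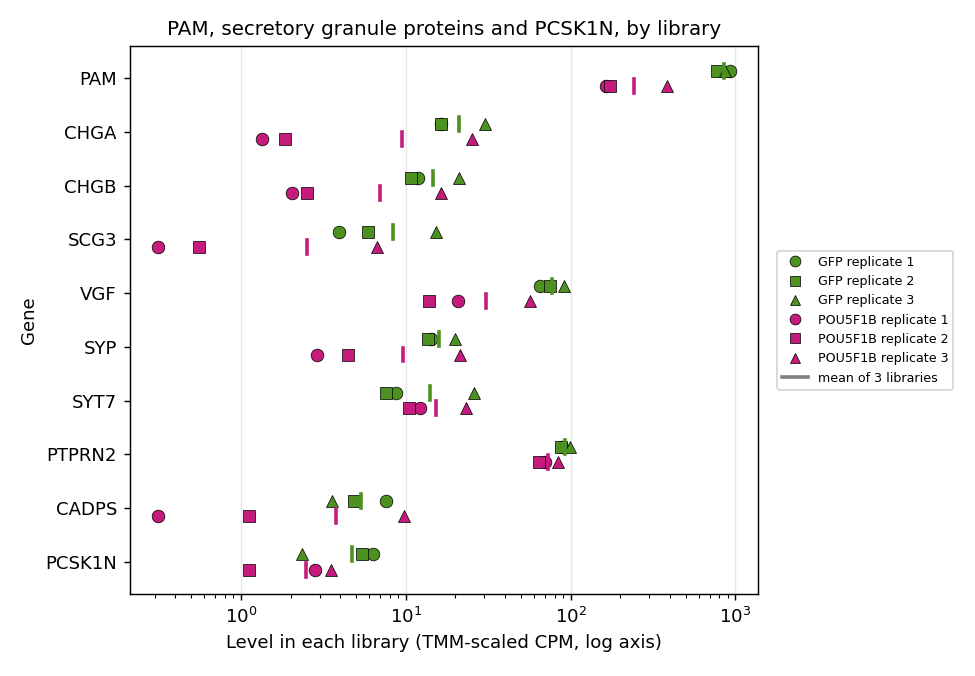
Level of PAM, the 8 tested granule genes and PCSK1N in each library (TMM-scaled CPM, log axis), with GFP in green, POU5F1B in magenta, symbols for the replicate number and vertical bars for the mean of 3 libraries. POU5F1B replicates 1 and 2 sit far left of the GFP libraries for CHGA, CHGB, SCG3 and VGF, whereas POU5F1B replicate 3 (triangle) lies among or near the GFP libraries.

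Peptide precursors that PAM amidates were few. Of 30 such genes, 15 had no read in any library and 6 were tested. GAL, the precursor of galanin, was at 21.9, 22.9 and 48.2 CPM in GFP cells and at 47.0, 44.9 and 52.0 CPM in POU5F1B cells, with GFP replicate 3 inside the POU5F1B range (0.74 ± 0.29, voom adjusted p = 0.395). KISS1, the precursor of kisspeptin, was at 6.82, 8.30 and 4.53 CPM in GFP cells and at 18.3, 15.9 and 10.3 CPM in POU5F1B cells. It was higher in every POU5F1B library (1.17 ± 0.33, voom adjusted p = 0.282).

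ADM, the precursor of adrenomedullin, was at 16.9, 19.0 and 10.96 CPM in GFP cells and at 19.1, 15.1 and 17.4 CPM in POU5F1B cells, an overlap with a log2 fold change of 0.17 ± 0.25 (95% interval -0.42 to 0.75). NMU, the neuromedin U precursor, named after its values were seen, was higher in every POU5F1B library at 7.63, 8.99 and 7.08 CPM against 4.04, 3.35 and 5.74 CPM. Of the 6, 0 passed the threshold with voom and 2 (KISS1 and NMU) were higher in every POU5F1B library, against 10.2% of all tested genes. With voom, 3 had an unadjusted p-value under 0.05, as did 1698 of all 14286 tested genes. The median log2 fold change of the 6 was 0.45. With replicates 1 and 2 only, GAL, KISS1 and NMU passed the threshold as higher, beside 3.21% of tested genes in that direction.

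Substrates of the constitutive convertases were well represented, with 23 of 26 tested and a median log2 fold change of -0.10. With voom 0 passed the threshold and 5 had an unadjusted p-value under 0.05, as did 1698 of all 14286 tested genes. BMP4, a secreted growth factor cut by FURIN-type convertases, was at 889, 811 and 517 CPM in GFP cells and at 55.1, 48.3 and 316 CPM in POU5F1B cells. All POU5F1B libraries were below all GFP libraries, with both replicate 3 libraries nearest the middle (-2.93 ± 0.65, voom adjusted p = 0.220). The integrin precursors ITGA3 (-0.26 ± 0.29) and ITGA6 (0.15 ± 0.21) overlapped between the groups.

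Of the 23, 5 were lower in every POU5F1B library (BMP4 and, named after their values were seen, TGFB2, SORL1, GDF15 and INHBA), against 9.24% of all tested genes, and 2 were higher (INSR and ADAM17), against 10.2%. TGFB2, another growth factor precursor, was at 64.5, 59.7 and 27.3 CPM in GFP cells and at 7.16, 6.67 and 7.83 CPM in POU5F1B cells (-2.71 ± 0.43, voom adjusted p = 0.185). Unlike CHGA, VGF, SCG3 and CADPS, TGFB2 was about as low in POU5F1B replicate 3 as in the other POU5F1B libraries. SORL1, a sorting receptor, was at 243, 236 and 239 CPM in GFP cells and at 113, 106 and 204 CPM in POU5F1B cells (-0.83 ± 0.24, voom adjusted p = 0.296). With replicates 1 and 2 only, 5 substrates passed the threshold, all lower, against 5.15% of tested genes.

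**Figure D4:**
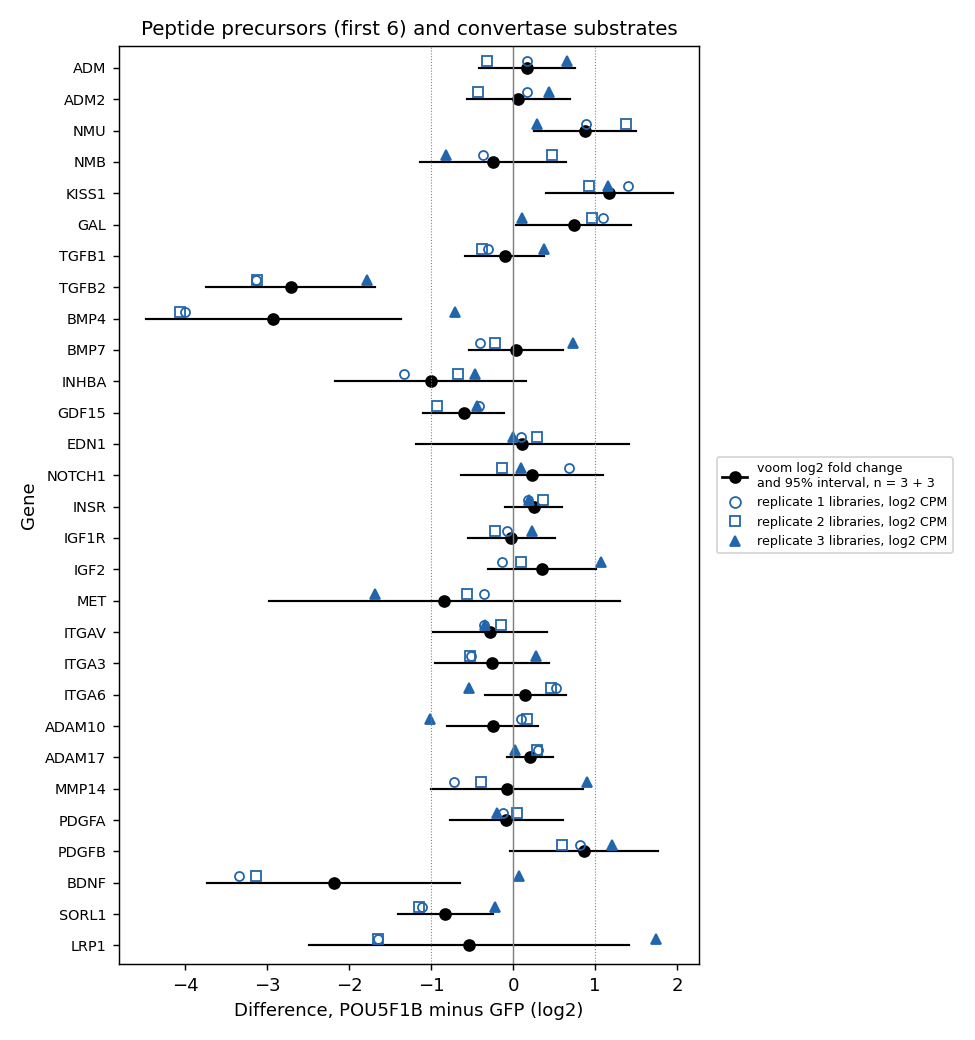
Log2 difference, POU5F1B minus GFP, for the 6 tested precursors of amidated peptides (ADM to GAL) and the 23 tested convertase substrates (TGFB1 to LRP1). Black points and lines give the voom log2 fold change with its 95% interval (3 libraries a group), blue symbols the log2 CPM difference between libraries of the same replicate number, and dotted lines a 2-fold difference. BMP4 lies at -2.93 and TGFB2 at -2.71, and KISS1 lies highest at 1.17.

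The genes next to PAM on chromosome 5 were read for their own values. On the side before PAM, the nearest tested gene LINC00491 began 149.8 kb away and had a log2 fold change of -0.997 ± 0.42, FAM174A followed at 2218.6 kb (-0.11 ± 0.21), and CHD1 at 3900 kb (-0.93 ± 0.85). On the other side GIN1 began 332 kb away (-0.46 ± 0.57), PPIP5K2 366.2 kb away (-0.62 ± 0.61) and MACIR 504.8 kb away (0.33 ± 0.34). In the fit of replicates 1 and 2 only, LINC00491 passed the threshold as lower, at -1.37, beside 5.15% of tested genes. There CHD1, GIN1 and PPIP5K2 had the opposite sign, at 0.20, 0.37 and 0.20. The 42 other tested genes within 10 Mb had a median log2 fold change of -0.30, against -0.02 over all tested genes. They ran from -3.33 (NR2F1-AS1) to 1.35, and 6 of them were below -1. The share of all tested genes below -1 was not taken, so nothing is read from that count.

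**Figure D5:**
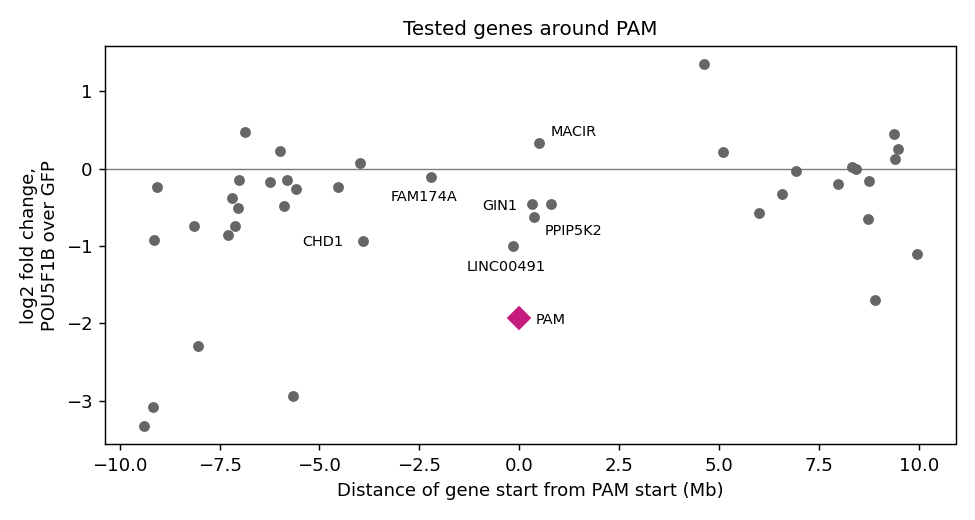
Log2 fold change, POU5F1B over GFP, of PAM (magenta diamond) and the 42 other tested genes whose start lies within 10 Mb of its start (grey points), against the distance between starts in Mb. The 3 nearest tested genes on each side are named. PAM at -1.93 lies below these 6 neighbours, which run from -0.997 to 0.33.

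The genes whose profile over the 6 libraries was most like that of PAM were found by the root mean square difference of log2 CPM after centring each gene. They were IL16 (0.177), a cytokine precursor, MYOM1 (0.188), a muscle structural protein, DKK1 (0.199), a secreted Wnt inhibitor, FAT1 (0.214), an atypical cadherin, and ACTBP1 (0.233), an actin pseudogene whose reads may be shared with other actin copies. FAT1 was at 1796, 1750 and 1471 CPM in GFP cells and at 282, 282 and 543 CPM in POU5F1B cells. DKK1 was at 51.4, 41.8 and 43.5 CPM in GFP cells and at 6.45, 6.58 and 18.2 CPM in POU5F1B cells. As for PAM, POU5F1B replicate 3 was the highest of its group and still below every GFP library.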

How the data were processed

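Polyadenylated RNA of 3 GFP and 3 POU5F1B libraries of SW480 cells was analysed, with groups and replicate numbers taken from the titles. The authors mapped reads to hg19 with hisat2, counted them with featureCounts over an annotation of genes and transposable elements, kept uniquely mapped reads, and deposited whole-number counts per Ensembl gene without normalization. The strand setting and annotation release are not given in the sources used here. Symbols were matched for 87.4% of 63677 identifiers and for all 139 list entries.

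The filter filterByExpr of edgeR 4.0.16 kept 14286 genes, and libraries were scaled by TMM. Differences were fitted with voom of limma 3.58.1 in R 4.3.3, as in the study, without a block and with p-values adjusted over all tested genes by Benjamini-Hochberg. The threshold was a more than 2-fold difference at an adjusted p-value below 0.05. CPM used TMM-scaled sizes, with a prior count of 2 on the log2 scale. Floors of 3 counts cover counting error only. No pair of libraries of a group agreed within sampling noise (chi-square per degree of freedom 4.21 to 89.5).

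The members and lists were chosen with earlier results of these data known. The genes named are the members, POU5F1B, every tested helper, PAM partner and copper or ascorbate gene, the 3 tested genes with the highest CPM per kilobase of each other list, any list gene past the threshold, the 3 nearest tested genes on each side of PAM, and the 5 nearest profiles. Others are said to be named after their values were seen, and 1 gene of the other convertases is not reported here. The lists were convertase helpers, other convertases, other carboxypeptidases, PAM partners, copper and ascorbate supply, other peptide trimming enzymes, granule proteins, precursors of amidated peptides and convertase substrates, with markers of colon epithelium, enteroendocrine cells, leukocytes and fibroblasts.

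Alternatives were edgeR's quasi-likelihood test, DESeq2 1.42.0, voom with sample quality weights, other scalings and filters, the replicate number as a block, leaving out each library, and replicates 1 and 2 only. The fits were run on simulated counts in which no library stood apart from its group. That run does not show how the fits handle a library like GFP replicate 3. Gene positions (1-based) come from GENCODE on GRCh37, which is hg19. Promoter windows are from RefSeq on GRCh38.p14. Protein sequences were not used here.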

Additional observations from a re-analysis of the deposited data

How the results depend on the processing

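Over the 6 tested members, 96 log2 fold changes under the alternatives gave 89 with the direction and side of the threshold kept, 5 (all of PAM) that newly passed the threshold and 2 that reversed. Over all 57 named genes the counts were 774, 83 and 49 of 906. PAM stayed between -2.34 and -1.71 in every alternative.

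The number of members past the threshold, 0 with all libraries, was 1 (PAM) with DESeq2, with sample quality weights and with replicates 1 and 2 only, and ranged from 0 to 1 when 1 library was left out (PAM without GFP replicate 3, -1.94, and without POU5F1B replicate 3, -2.33). Of all tested genes, 232 passed with DESeq2, 1077 with sample quality weights, 4 with no filter and 1194 with replicates 1 and 2 only, and 0 to 595 passed when 1 library was left out (595 without GFP replicate 3, 5 without POU5F1B replicate 3). Of the list genes other than members, 4 passed with DESeq2, 19 with sample quality weights and 20 with replicates 1 and 2 only, and 0 to 8 when 1 library was left out (8 without GFP replicate 3). Members whose groups did not overlap numbered 2 to 4 with 1 library left out (4 without POU5F1B replicate 2) and 2 with all. The share of all tested genes was taken with all libraries only, so nothing is read from these counts. Fewer samples make overlap rarer by construction, and for the other shifts the cause was not tested. Sample quality weights put GFP replicate 3 at 0.111 and the other libraries at 0.575 to 2.79.

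With the replicate number as a block, 1 tested gene passed in place of 0, 0 members passed, and PAM was at -1.91. Same-numbered libraries had deviations from their group means that correlated at 0.242, 0.0883 and 0.165 over genes (replicates 1, 2 and 3), so the numbers were not taken as pairing. GFP replicate 2 was closer to POU5F1B replicate 1 (0.2496) than to its own number. For GFP replicate 3 its own number was the closest, with -0.277 and 0.013 for POU5F1B replicates 1 and 2.

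The reversed signs belonged to differences smaller than their SE or close to it. With sample quality weights, the log2 fold change was -0.0316 for ATP7B, -0.0009 for SLC23A2, -0.0056 for CYB561, -0.0272 for CYB561A3, -0.181 for CYB561D2, 0.0483 for NRDC, -0.0177 for ADM and 0.106 for GIN1. With replicates 1 and 2 only, the log2 fold change was -0.106 for ATP7B, -0.0337 for SLC23A2, -0.0465 for CYB561, -0.113 for CYB561A3, -0.252 for CYB561D2, -0.177 for PCSK4, 0.0835 for NRDC, -0.0832 for ADM, 0.199 for CHD1, 0.373 for GIN1 and 0.199 for PPIP5K2. With edgeR, the log2 fold change was -0.0215 for CYB561D2. With DESeq2, the log2 fold change was -0.0237 for CYB561D2. With upper quartile scaling, the log2 fold change was 0.0306 for MBTPS1. With total counts, the log2 fold change was 0.0199 for MBTPS1. With 1 library left out, the range was -0.0732 to 0.351 for ADM, -0.0719 to 0.212 for ATOX1, -0.0725 to 0.203 for ATP7B, -0.0111 to 0.0526 for CYB561, -0.117 to 0.337 for CYB561A3, -0.249 to 0.184 for CYB561D2, -0.0502 to 0.488 for FURIN, -0.793 to 0.0655 for GIN1, -0.423 to 0.0924 for KALRN, -1.49 to 0.0512 for LRP1, -0.273 to 0.13 for MBTPS1, -0.104 to 0.026 for NRDC, -0.316 to 0.537 for PCSK4, -0.0075 to 0.21 for PCSK6, -1.11 to 0.0269 for PPIP5K2, -0.0811 to 0.409 for SLC23A2 and -0.0376 to 0.124 for UHMK1.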
